A study of Mus musculus with 48 samples.

Results

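The 10 genes described here belong to the acetylcholine receptor of skeletal muscle and to its response to loss of nerve, and they were followed through RNA-seq of mouse tibialis anterior muscle. They were chosen by gene symbol, with earlier results of these data known, and comprised the receptor subunit genes *Chrna1*, *Chrnb1*, *Chrnd*, *Chrne* and *Chrng*, the receptor-clustering kinase gene *Musk*, and *Ncam1*, *Runx1*, *Hdac4* and *Gadd45a*. All 10 were present among the 56748 genes of the expression table. All 10 were also among the 15637 genes kept by a filter on low counts, *Chrng* through only 3 libraries with 10 or more reads.

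The study asked how a KPC pancreatic tumor changes daily gene expression in muscle and whether this depends on the transcription factor FoxP1. Male mice, aged 39 to 55 weeks per the labels (another passage of the study gives a younger age), received murine KPC pancreatic cancer cells or sterile PBS as control into the pancreas. Muscle was collected in constant darkness every 4 h from CT18 to CT38, where CT is circadian time in h. Each of the 24 groups held 2 mice, giving 48 libraries of 1 mouse each and 12 per combination of genotype and tumor status. The FoxP1SkmKO mice were homozygous FoxP1 fl/fl animals carrying ACTA1-Cre, a Cre transgene under the skeletal actin promoter, so the deletion was aimed at muscle fibers and not at nerve or Schwann cells. The labels call the WT mice C57BL/6J, whereas the series design describes them as FoxP1 fl/fl animals without Cre, and the 2 sources were not reconciled here.

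Library totals ranged from 14480867 to 20787784 counts with a median of 16602091.5. The 10 marker genes of skeletal fibers summed to between 45625 and 63638 FPKM, fragments per kilobase of gene length scaled to library size, in every library. *Foxp1*, the targeted gene, averaged 0.630 ± 0.140 FPKM (SD, n = 12) in WT control and 0.578 ± 0.0682 in FoxP1SkmKO control mice, a log2 difference of -0.11 (edgeR adjusted p = 0.459). In KPC mice the log2 difference between genotypes was -0.20 (edgeR adjusted p = 0.246). The level over the whole *Foxp1* gene thus did not separate the genotypes. Counts over a whole gene do not resolve the deleted exons, so this is no check of the labels, and genotype is used as the labels give it.

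Skeletal muscle contracts when acetylcholine released by the motor nerve opens a receptor of 5 subunits packed under the nerve ending. The adult receptor holds alpha, beta, delta and epsilon subunits, and the fetal form carries gamma in place of epsilon. MuSK, switched on by agrin through LRP4, gathers the receptor at the synapse. When a fiber loses its nerve, transcription of receptor subunits, *Musk*, *Ncam1*, *Runx1*, *Gadd45a* and the myogenic factor *Myog* is known to rise along the fiber, a program in which HDAC4 takes part.

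Receptor genes are textbook targets of myogenic factors, which bind E-boxes (CANNTG), and synaptic genes of ETS factors, which bind the N-box (CCGGAA). The 160 bases before the annotated start are shown for the alpha subunit, for the fetal and adult subunits that replace each other, and for MuSK, since the values below turn on these genes. E-boxes and N-boxes are in capitals. The sequences are from RefSeq on build GRCm38.p6, 5′ to 3′ on the gene's own strand, at chr2:73580339-73580498 (minus), chr1:87205651-87205810 (plus), chr11:70619195-70619354 (minus) and chr4:58285802-58285961 (plus).
Chrna1: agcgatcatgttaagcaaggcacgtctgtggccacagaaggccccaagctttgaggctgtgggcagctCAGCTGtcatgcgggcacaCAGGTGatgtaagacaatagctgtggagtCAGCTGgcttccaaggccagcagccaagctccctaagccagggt
Chrng: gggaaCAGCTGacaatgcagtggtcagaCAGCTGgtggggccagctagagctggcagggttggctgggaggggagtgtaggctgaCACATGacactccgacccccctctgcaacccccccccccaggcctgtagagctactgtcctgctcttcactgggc
Chrne: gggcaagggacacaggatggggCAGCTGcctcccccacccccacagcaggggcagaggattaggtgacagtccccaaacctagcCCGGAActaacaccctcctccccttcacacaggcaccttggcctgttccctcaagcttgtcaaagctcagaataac
Musk: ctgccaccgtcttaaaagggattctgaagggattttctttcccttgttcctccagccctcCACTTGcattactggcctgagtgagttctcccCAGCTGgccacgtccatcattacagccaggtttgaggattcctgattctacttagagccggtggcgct

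Within 250 bases before the start, *Chrna1* had E-boxes beginning 92, 73 and 44 bases upstream, and *Chrng* had them 155, 132 and 75 bases upstream. *Chrne* had an E-box at 138 and an N-box at 76 bases. *Musk* had E-boxes at 177, 100 and 68 bases, the first of which lies outside the stretch printed. Promoters were matched for 8 of the 10 members, in 9 windows, since *Runx1* has 2 starts. An E-box stood in 7 of these windows, 3 or more E-boxes in 5, and an N-box in 3 (*Chrne*, *Gadd45a* and 1 start of *Runx1*). Both strands of the same window were searched in all 32851 promoters, of which 66.2% held CANNTG, 12.2% held it 3 or more times and 12.0% held CCGGAA. The form CAGCTG, found in *Chrna1*, *Chrng*, *Chrne* and *Musk*, is 1 of the E-boxes and occurred in 13.0% of all promoters. A match describes letters, and binding was not measured here.

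**Figure D1:**
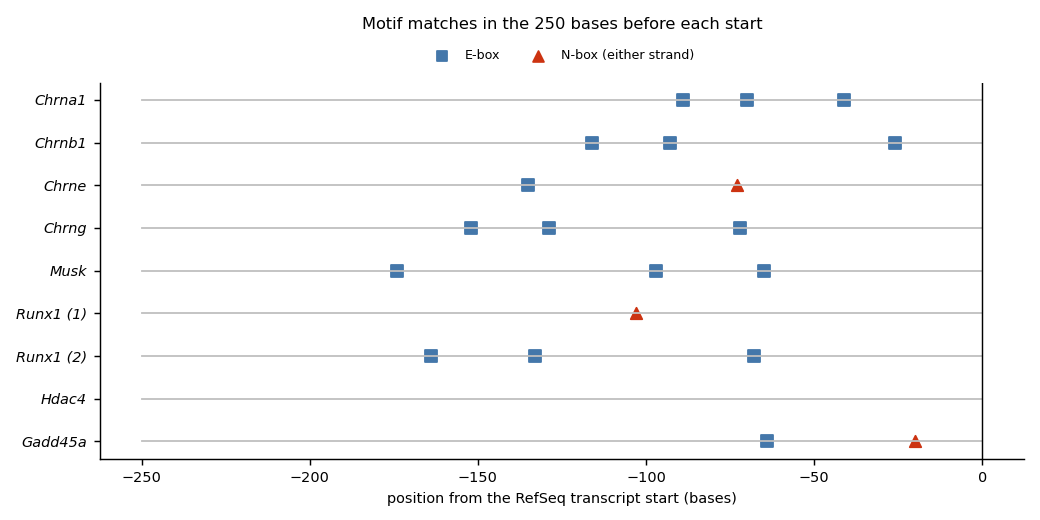
Centers of E-boxes (CANNTG) and N-boxes (CCGGAA) in bases before the annotated start, for 9 promoter windows of 8 members. *Chrna1*, *Chrnb1*, *Chrng*, *Musk* and 1 *Runx1* start each hold 3 E-boxes, and *Chrne*, *Gadd45a* and the other *Runx1* start hold an N-box.

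The adult receptor genes were expressed in every library, and the fetal subunit was at the edge of detection. In mean FPKM over the 48 libraries, *Chrnb1* (beta subunit) stood highest at 14.9 with a range of 10.3 to 25.1, and *Chrne* (epsilon subunit) followed at 10.3 with a range of 6.09 to 16.6. *Gadd45a* averaged 8.18 FPKM (4.64 to 16.9), *Chrna1* (alpha subunit) 3.75 (1.82 to 19.3), *Hdac4* 3.52 (2.54 to 4.61), *Musk* 1.56 (0.728 to 3.10) and *Chrnd* (delta subunit) 1.0 (0.630 to 1.5). *Ncam1* averaged 0.499 FPKM (0.259 to 1.17), *Runx1* 0.179 (0.0860 to 0.553) and *Chrng* (gamma subunit) 0.0368 (0 to 0.273). Most neighbors in this order kept their places within a mouse. *Chrnb1* was above *Chrne*, *Hdac4* above *Musk*, *Ncam1* above *Runx1* and *Runx1* above *Chrng* in all 48 libraries, *Chrnd* above *Ncam1* in 47, *Gadd45a* above *Chrna1* in 45, *Musk* above *Chrnd* in 41 and *Chrne* above *Gadd45a* in 37. *Chrna1* was above *Hdac4* in only 18 of 48 libraries although its mean was higher, so this pair had no fixed order.

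**Figure D2:**
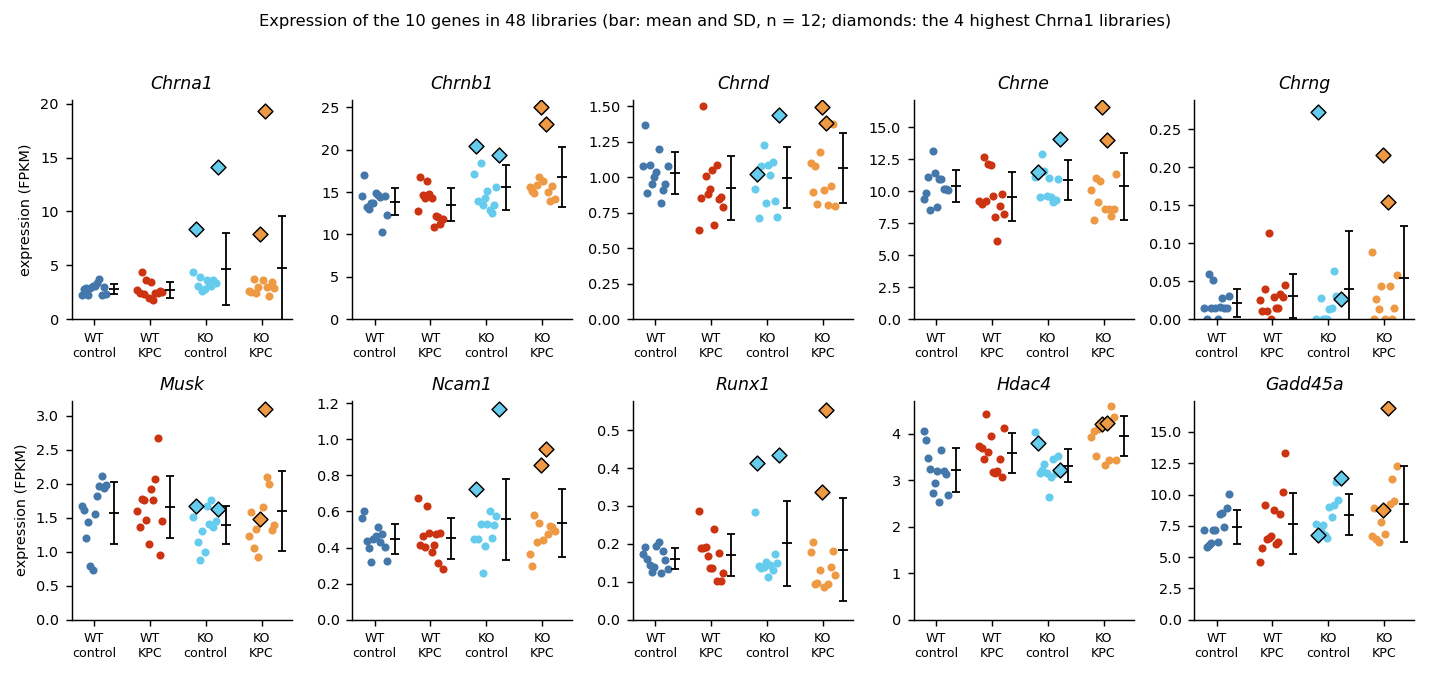
FPKM (linear axes from 0) of the 10 genes in each library, in columns for WT and FoxP1SkmKO (written KO) mice without or with a KPC tumor, n = 12 each. Bars give the mean and SD, clipped at 0, and diamonds mark the 4 libraries with the highest *Chrna1*, which lie above all others in *Chrna1*, *Chrnb1*, *Ncam1* and *Runx1* but among the others in *Hdac4*.

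In 4 libraries *Chrna1* stood apart from the other 44. They are replicate 2 of FoxP1SkmKO control at CT18 and at CT38, and replicate 2 of FoxP1SkmKO KPC at CT26 and at CT30, and their values are given in that order. *Chrna1* read 8.33, 14.1, 7.92 and 19.3 FPKM, against 4.41, 3.34, 2.97 and 3.61 in the other mouse of each group and 1.82 to 4.41 in the 44 libraries. *Chrnb1* read 20.4, 19.3, 25.1 and 23.0 FPKM, above the 10.3 to 18.4 of the rest. Both subunits were thus highest in the same 4 mice, all of them FoxP1SkmKO, 2 without and 2 with a tumor.

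*Ncam1* and *Runx1* were also highest in these libraries. *Ncam1*, a cell adhesion molecule that spreads over denervated fibers, read 0.724, 1.17, 0.860 and 0.949 FPKM, against 0.259 to 0.674 in the other 44. *Runx1*, a transcription factor induced by denervation, read 0.414, 0.435, 0.338 and 0.553 FPKM, against 0.0860 to 0.287. *Chrne* read 11.5, 14.1, 16.6 and 14.005 FPKM, above the others' highest value of 13.1 in all but the first. *Chrng* had 21, 2, 17 and 11 counts, against at most 7 in any WT library. Of the 10 members, 5, 5, 6 and 8 read above all 44 other libraries, as did 4.76%, 4.83%, 5.73% and 5.93% of the 15637 genes kept by the filter. *Chrna1* is in each of these counts because it picked the libraries, and *Chrng*, which is in 3 of them, passed the filter through these same libraries. The 4 libraries were picked by *Chrna1* after its values were seen, so these values are a description without a test.

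Other members stayed within the range of the 44 libraries in most of these mice. *Chrnd*, the neighbor of *Chrng* on chromosome 1, read 1.02, 1.44, 1.49 and 1.38 FPKM, inside 0.630 to 1.5. All but the first of these values were high, beside a median of 0.976 FPKM over the 48 libraries. Outside these 4 libraries only a WT KPC library at CT22 (1.497 FPKM) read above them. The ratio of *Chrna1* to *Chrnd* was accordingly 8.17, 9.83, 5.30 and 13.98, where the other libraries lay between 2.09 and 4.82. *Hdac4* read 3.80, 3.21, 4.22 and 4.24 FPKM, inside 2.54 to 4.61. *Musk* (1.68, 1.62, 1.48 and 3.10 FPKM) and *Gadd45a* (6.80, 11.3, 8.74 and 16.9 FPKM) exceeded the others' highest values of 2.67 and 13.4 only in FoxP1SkmKO KPC CT30. Among genes that are not members, *Myog*, which drives receptor transcription after denervation, read 2.42, 3.27, 2.86 and 3.24 FPKM and stayed within 0.883 to 3.59. *Ache*, the acetylcholinesterase that ends transmission, read 23.5, 33.1, 28.7 and 30.0 FPKM, above the 13.8 to 20.8 of the others. *Sln*, which encodes the calcium pump regulator sarcolipin, read 9.43, 20.3, 8.74 and 34.1 FPKM, above 0.0976 to 3.48. *Ache* is from a list of 22 organizers of the postsynaptic site, of which 1, 4, 3 and 2 read above the other 44 libraries, and *Rapsn* read below them in the first. Of 16 further denervation-responsive genes 1, 1, 1 and 3 read above the others. *Dach2* read below them in FoxP1SkmKO control CT38 and FoxP1SkmKO KPC CT26, and *Trim63* in the former. Of the 15637 genes kept by the filter, 4.76%, 4.83%, 5.73% and 5.93% read above the other 44 libraries. Below them read 3.03%, 5.01%, 3.78% and 4.49%.

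Depth and markers of other cells in the 4 libraries were as follows. Their totals, from 16536622 to 19235435 counts, lay within the range of the others. The 8 leukocyte and macrophage markers summed to 42.3, 19.5, 20.4 and 27.9 FPKM, against 8.98 to 47.9 in the other libraries, and the first of these was the second highest of all. The 8 Schwann cell and myelin markers summed to 21.4, 22.6, 15.8 and 13.9 FPKM (13.8 to 43.1), and the 5 satellite cell markers to 5.96, 5.46, 4.36 and 3.48 (3.53 to 6.25). The 4 endothelial markers summed to 60.8, 56.9, 55.4 and 44.2 FPKM (51.6 to 75.3), and the 4 fibro-adipogenic markers to 51.2, 43.7, 30.6 and 25.2 (13.1 to 58.7). The last library therefore lay below the others in satellite cell and endothelial markers. The axon markers *Nefl*, *Nefm* and *Nefh* were under 0.1 FPKM in all 48 libraries. The part of these markers in the high *Chrna1* values was not tested. Comparisons of the members are given with the 4 libraries and, where they bear on a value, without them.

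**Figure D3:**
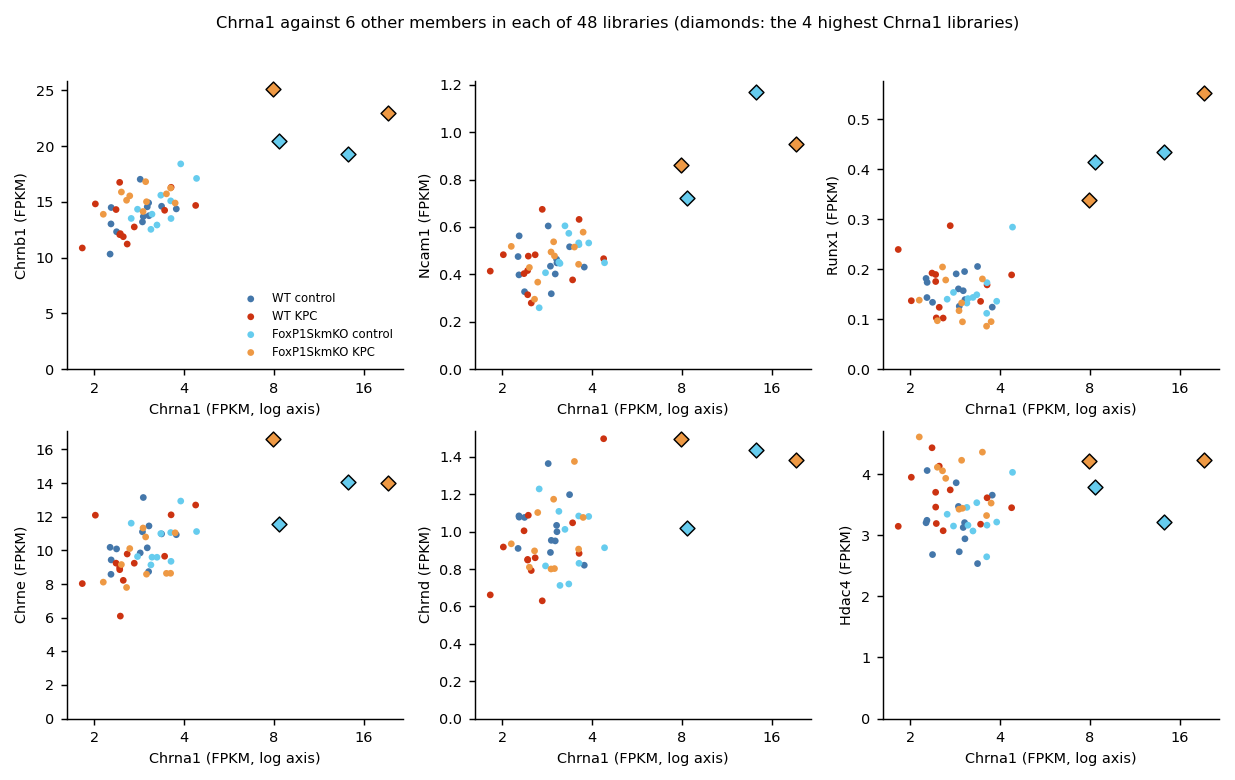
FPKM of *Chrnb1*, *Ncam1*, *Runx1*, *Chrne*, *Chrnd* and *Hdac4* (linear axes) against FPKM of *Chrna1* (log axis) in the 48 libraries, colored by genotype and tumor status, with the 4 highest *Chrna1* libraries as diamonds. *Chrnb1*, *Ncam1* and *Runx1* are highest where *Chrna1* is highest. In *Chrnd* and *Hdac4* the diamonds stay inside the range of the other 44 libraries, in *Chrnd* mostly near its top.

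The first comparison asked whether the tumor changed these genes when averaged over the day. In WT mice none of the 10 members was called by edgeR (adjusted p under 0.05), where 1.79% of all genes were. DESeq2 and limma also called 0. An unadjusted p under 0.05 by edgeR was found for 1 member, *Hdac4*, and for 15.2% of all genes. In FoxP1SkmKO mice 1 member was called, *Hdac4*, where 0.428% of all genes were called and 0.134% were called higher, and no other member had an unadjusted p under 0.05, which 12.4% of genes had. In bulk muscle, fewer cells of a kind and less RNA per cell cannot be told apart. The members' median log2 difference was 0.02 in WT and 0.09 in FoxP1SkmKO mice, beside 0.00 for all genes in each, and the latter was 0.01 without the 4 libraries.

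The receptor subunit genes lie on chromosome 2 at 73393559-73410682 (*Chrna1*), chromosome 11 at 69674862-69686769 (*Chrnb1*) and 70505709-70510042 (*Chrne*), and chromosome 1 at 87118329-87127792 (*Chrnd*) and 87132379-87140416 (*Chrng*), build mm39. In WT mice their values with and without a tumor overlapped. *Chrna1* had a lowest, median and highest value of 2.26, 2.91 and 3.77 FPKM in control and of 1.82, 2.47 and 4.38 in KPC mice, a log2 difference of -0.07 (SE 0.22, edgeR adjusted p = 0.929). *Chrnb1* had 10.3, 14.1 and 17.0 FPKM in control and 10.9, 13.5 and 16.8 in KPC mice, a log2 difference of -0.04 (SE 0.07, edgeR adjusted p = 0.835). The KPC values of *Chrna1* reached beyond those of control mice at either end, and those of *Chrnb1* lay inside the control range. *Chrnd* was 1.03 ± 0.147 against 0.923 ± 0.227 FPKM and *Chrne* 10.4 ± 1.25 against 9.58 ± 1.91 (SD, n = 12). Their log2 differences of -0.17 and -0.13 (SE 0.12 and 0.09) lay within the spread of the libraries, which for *Chrnd* includes sampling error of low counts.

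In FoxP1SkmKO mice the same genes overlapped between control and KPC mice too, with wider spreads. *Chrna1* had a lowest, median and highest value of 2.66, 3.48 and 14.1 FPKM in control and of 2.14, 2.98 and 19.3 in KPC mice. Its log2 difference was -0.09 (SE 0.21, edgeR adjusted p = 0.909), and -0.20 (edgeR adjusted p = 0.688) without the 4 libraries. *Chrnb1* had 12.5, 14.7 and 20.4 FPKM in control and 13.9, 15.6 and 25.1 in KPC mice, a log2 difference of 0.11 (SE 0.07, edgeR adjusted p = 0.562). The highest value of each of these groups belongs to 1 of the 4 libraries. *Chrnd* and *Chrne* differed by 0.08 and -0.08 on the log2 scale (SE 0.12 and 0.09). *Chrnb1* differed by 0.05 and *Chrne* by -0.17 without the 4 libraries. *Chrne* overlaps 4930544D05Rik on the other strand, which reached 7.41 FPKM, and the labels do not settle whether reads kept their strand, so reads of the pair cannot be told apart.

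*Chrng*, which *Chrne* replaces after birth, is given as counts. The 12 WT control libraries held 19 *Chrng* reads in all, the WT KPC libraries 25, the FoxP1SkmKO control libraries 35 and the FoxP1SkmKO KPC libraries 47. It had 0 reads in 2, 1, 4 and 3 of the 12 libraries, and 10 or more reads only in 3 of the 4 libraries with the highest *Chrna1*. A tumor or genotype difference in *Chrng* was not detectable at this depth.

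*Musk* (chromosome 4, 58285960-58374303) read 1.57 ± 0.457 FPKM in WT control and 1.66 ± 0.454 in WT KPC mice (SD, n = 12). In FoxP1SkmKO mice it read 1.40 ± 0.279 FPKM in control and 1.60 ± 0.585 in KPC mice. The log2 differences with a tumor, 0.11 and 0.17 (SE 0.10 in each, edgeR adjusted p = 0.636 and 0.504), lay inside the spread between mice. *Ncam1* (chromosome 9, 49413436-49710225) differed by 0.01 in WT and -0.03 in FoxP1SkmKO mice on the log2 scale (SE 0.14 and 0.13), and *Runx1* (chromosome 16, 92398354-92623037) by 0.05 and -0.12 (SE 0.21 in each). *Ncam1* overlaps the transcript ENSMUSG00000120806 on its own strand, which reached 2.05 FPKM. Neither gene passed the test, and the highest values of both sat in the 4 libraries. Without these, the log2 difference in FoxP1SkmKO mice was 0.04 for *Musk*, -0.04 for *Ncam1* and -0.37 for *Runx1* (edgeR adjusted p = 0.957, 0.9605 and 0.433).

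*Hdac4* (chromosome 1, 91856501-92123421) encodes a histone deacetylase that accumulates in denervated muscle and represses *Dach2*, itself a repressor of *Myog*. In WT mice it had a lowest, median and highest value of 2.54, 3.21 and 4.06 FPKM in control and of 3.08, 3.54 and 4.43 in KPC mice. In FoxP1SkmKO mice the values were 2.65, 3.22 and 4.03 FPKM in control and 3.32, 4.09 and 4.61 in KPC mice, so the median KPC mouse lay above every control mouse while the lower KPC mice overlapped them. The log2 difference in FoxP1SkmKO mice was 0.26 (SE 0.06, edgeR adjusted p = 0.0307), and in WT mice it was 0.16 (SE 0.06, edgeR adjusted p = 0.158). *Hdac4* rose in FoxP1SkmKO mice as 1 of 21 genes called higher there.

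The *Hdac4* call lay near the threshold. Without the 4 libraries, an alternative chosen after seeing the data, the log2 difference was 0.21 (SE 0.07) with an edgeR adjusted p of 0.309, and the number of all genes called went from 67 to 4. The call was also lost when any of 12 single libraries was left out, each of them a FoxP1SkmKO library, while the log2 difference kept between 0.22 and 0.26 (edgeR adjusted p = 0.0569 to 0.104). *Gadd45a* (chromosome 6, 67012080-67014441), a stress gene induced after denervation downstream of HDAC4, differed by 0.02 in WT and 0.13 in FoxP1SkmKO mice on the log2 scale (SE 0.10 in each) and did not pass the test. The latter value was -0.01 without the 4 libraries.

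The tumor effect was then compared between genotypes. None of the 10 members was called, where 0% of all genes were by edgeR, and DESeq2 and limma also called 0. An unadjusted p under 0.05 by edgeR was found for 0 members and for 6.52% of all genes. For *Hdac4* the tumor effect in WT minus that in FoxP1SkmKO mice was -0.10 on the log2 scale (SE 0.08, edgeR adjusted p = 0.866), and for *Chrnb1* it was -0.15 (SE 0.10, edgeR adjusted p = 0.838). The call of *Hdac4* in FoxP1SkmKO and not in WT mice is therefore not shown to be a difference between genotypes. Over the 9 members other than *Chrng* this difference ran from -0.25 to 0.17.

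**Figure D4:**
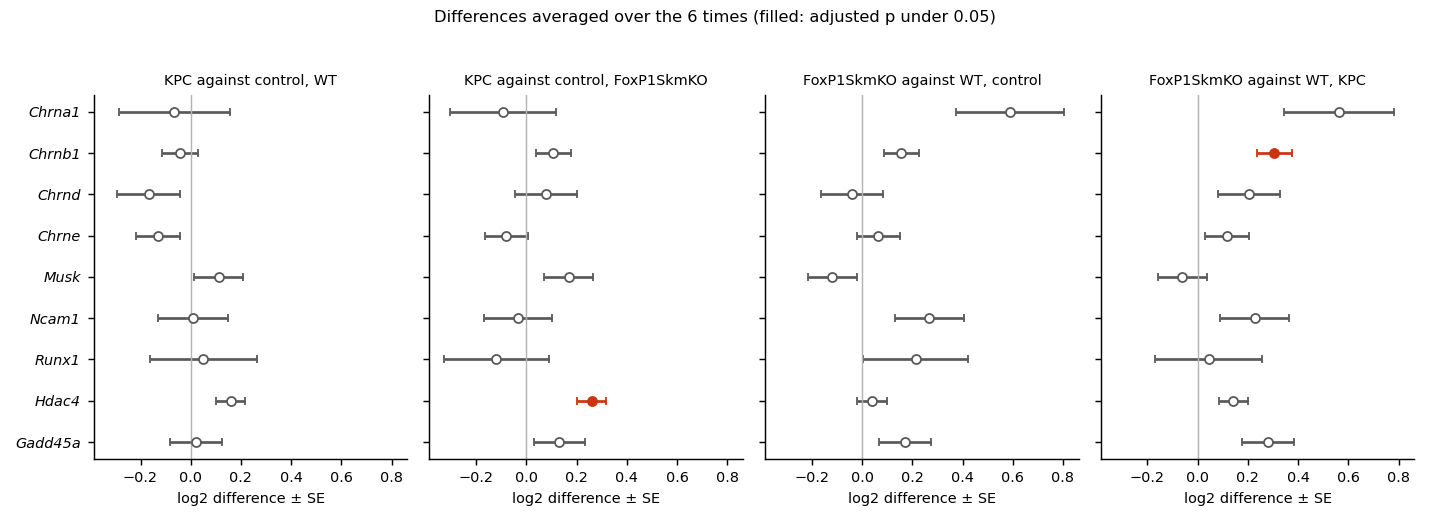
Log2 differences (edgeR, with standard errors) of the 9 members other than *Chrng* for KPC against control mice in each genotype and for FoxP1SkmKO against WT mice in control and in KPC mice, averaged over 6 times. Filled points pass the adjusted threshold, *Hdac4* for the tumor in FoxP1SkmKO mice (0.26) and *Chrnb1* for genotype in KPC mice (0.31).

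The next comparison asked whether FoxP1SkmKO and WT muscle differed. In control mice none of the 10 members was called, where 3.44% of all genes were by edgeR, and DESeq2 and limma called 0. An unadjusted p under 0.05 by edgeR was found for 2 members, *Chrna1* and *Chrnb1*, and for 17.2% of all genes. In KPC mice 1 member was called, *Chrnb1*, where 0.32% of all genes were called and 0.256% were called higher, and 4 members had an unadjusted p under 0.05, which 10.8% of genes had. The members' median log2 difference was 0.11 in control and 0.22 in KPC mice, beside 0.00 for all genes in each. The members' medians were 0.05 and 0.08 without the 4 libraries, and all genes stayed at 0.00.

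*Chrnb1* read higher in FoxP1SkmKO than in WT mice with a tumor. Its lowest, median and highest values were 13.9, 15.6 and 25.1 FPKM in FoxP1SkmKO KPC and 10.9, 13.5 and 16.8 in WT KPC mice, so the ranges overlapped but every FoxP1SkmKO mouse lay above the WT median. The log2 difference was 0.31 (SE 0.07, edgeR adjusted p = 0.0427). Without the 4 libraries it was 0.21 (SE 0.06, unadjusted p = 0.00248) with an edgeR adjusted p of 0.322, and genes called in this comparison went from 50 to 10. The call was also lost when any of 24 single libraries was left out, while the log2 difference kept between 0.25 and 0.31 (edgeR adjusted p = 0.0506 to 0.153). In control mice *Chrnb1* differed by 0.16 in the same direction (SE 0.07, edgeR adjusted p = 0.234).

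*Chrna1* had larger differences with larger errors. Its log2 difference between FoxP1SkmKO and WT was 0.59 in control mice (SE 0.22, edgeR adjusted p = 0.126) and 0.56 in KPC mice (SE 0.22, edgeR adjusted p = 0.311). Without the 4 libraries these were 0.27 (SE 0.12, edgeR adjusted p = 0.276) and 0.14 (SE 0.12, edgeR adjusted p = 0.854). The medians of the 12 mice, 2.91 FPKM in WT control and 3.48 in FoxP1SkmKO control, lay closer together than the means of 2.84 ± 0.472 and 4.69 ± 3.33 (SD).

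The remaining members did not pass in either comparison of genotypes. In KPC mice *Gadd45a* differed by 0.28 (SE 0.10, edgeR adjusted p = 0.264) and *Hdac4* by 0.14 (SE 0.06, edgeR adjusted p = 0.358) on the log2 scale, both with an unadjusted p under 0.05. These values were 0.13 and 0.11 without the 4 libraries. *Ncam1* differed by 0.27 in control and 0.23 in KPC mice (SE 0.14 in each), and by 0.11 and 0.05 without the 4 libraries. *Runx1* differed by 0.21 and 0.04 (SE 0.21 in each), and by 0.01 and -0.41 (edgeR adjusted p = 0.998 and 0.450) without them. *Musk* had -0.12 in control and -0.06 in KPC mice (SE 0.10 in each), and -0.14 and -0.21 without the 4 libraries.

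At single times 2 KPC mice stood against 2 control mice. No member was called by edgeR at any of the 6 times in either genotype, that is in 0 of 120 pairs of member and comparison. Of all genes, edgeR called 7.17% in WT mice at CT26, 0.0064% at CT30, 0.0256% at CT38 and 0% at CT18, CT22 and CT34. In FoxP1SkmKO mice it called 0.0192% at CT18, 0.0384% at CT26, 0.0064% at CT38 and 0% at CT22, CT30 and CT34. An unadjusted p under 0.05 was found in 6 of the 60 pairs in WT and 13 of the 60 in FoxP1SkmKO mice, beside 8.91% and 8.07% of such pairs over all genes. DESeq2 on all 48 libraries called 1 pair, in WT mice at CT26, where it called 1255 of 9574 genes. DESeq2 on the 4 libraries of each comparison called 2 pairs. They were in WT mice at CT26 (587 of 6424 genes called) and FoxP1SkmKO mice at CT18 (97 of 11150).

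The members closest to a call were *Musk* and *Hdac4* in WT mice at CT26. *Musk* read 0.787 and 0.728 FPKM in the control mice, the lowest values of all 48 libraries, and 1.47 and 1.11 in the KPC mice, a log2 difference of 0.76 (SE 0.26, edgeR adjusted p = 0.0732). *Hdac4* read 2.73 and 2.94 FPKM in control and 3.61 and 3.95 in KPC mice, a log2 difference of 0.41 (SE 0.14, edgeR adjusted p = 0.0777). In neither gene did the pairs overlap. *Hdac4* was called by DESeq2 on all 48 libraries (adjusted p = 0.0384), and *Musk* by edgeR when the 4 libraries, none of which is in this comparison, were left out of the shared fit (adjusted p = 0.0365). At CT38 *Musk* had the opposite sign, with 1.94 and 1.98 FPKM in control and 0.944 and 1.44 in KPC mice, a log2 difference of -0.71 (SE 0.24, edgeR adjusted p = 0.331).

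In FoxP1SkmKO mice all 13 pairs with an unadjusted p under 0.05 fell at CT18, CT26, CT30 and CT38, the times whose groups hold the 4 libraries. *Chrna1* differed by -1.29 at CT18, 1.75 at CT30 and -1.45 at CT38 on the log2 scale (edgeR adjusted p = 0.258, 0.281 and 0.455). *Ncam1* differed by -0.83 at CT18, 1.07 at CT26 and -0.79 at CT38 (edgeR adjusted p = 0.267, 0.319 and 0.523). At CT18 and CT38, where the high library was a control, these values were negative. At CT26 and CT30, where it was a KPC library, they were positive. The libraries were picked by *Chrna1*, so its signs follow from the pick. *Ncam1* was also highest in these libraries, and the signs are a description without a test. Without the 4 libraries 3 of the 60 pairs in FoxP1SkmKO mice had an unadjusted p under 0.05, beside 5.63% over all genes. At those 4 times 1 arm then holds a single mouse, which is assumed to vary like the other groups.

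Time of day was tested with a sinusoid of 24 h shared by all 48 libraries. It was called for 4 of the 10 members, *Musk*, *Gadd45a*, *Hdac4* and *Chrne*, where 34.9% of all genes were called, a share close to that of the members. The members' median fitted amplitude was 0.12 on the log2 scale, beside 0.11 for all genes. Without the 4 libraries 5 members were called, these 4 and *Chrnb1* (edgeR adjusted p = 0.0216).

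*Musk* and *Gadd45a* had the largest amplitudes among the called members. *Musk* had an amplitude of 0.33 on the log2 scale and a fitted peak at CT34.5 (edgeR adjusted p = 0.000654). Its lowest, median and highest values over 8 libraries were 0.728, 1.05 and 1.48 FPKM at CT26 and 1.36, 2.04 and 2.67 at CT34, so these times overlapped only between 1.36 and 1.48 FPKM. *Gadd45a* peaked at CT34.8 with an amplitude of 0.29 (edgeR adjusted p = 0.000332), with 4.64, 6.74 and 8.89 FPKM at CT18 and 8.96, 10.1 and 13.4 at CT38. Every mouse at CT38 thus had more *Gadd45a* than every mouse at CT18, in both genotypes and with or without a tumor.

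*Hdac4* and *Chrne* peaked at other times with smaller amplitudes. *Hdac4* had an amplitude of 0.10 and a fitted peak at CT18.5 (edgeR adjusted p = 0.0347), with 3.70, 3.90 and 4.06 FPKM at CT18 and 2.54, 3.17 and 4.24 at CT30. *Chrne* had an amplitude of 0.14 and a peak at CT24.6 (edgeR adjusted p = 0.0459), with 9.63, 11.9 and 16.6 FPKM at CT26 and 6.09, 9.0 and 10.9 at CT34. Both lay close to the threshold, since *Hdac4* lost its call when any of 9 single libraries was left out and *Chrne* when any of 26 was (edgeR adjusted p up to 0.0753 and 0.113). *Chrna1*, *Chrnd*, *Ncam1* and *Runx1* had amplitudes of 0.14, 0.07, 0.03 and 0.08 (edgeR adjusted p = 0.701, 0.624, 0.967 and 0.849). Whether the epsilon subunit gene cycled more than the other subunit genes was not tested.

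**Figure D5:**
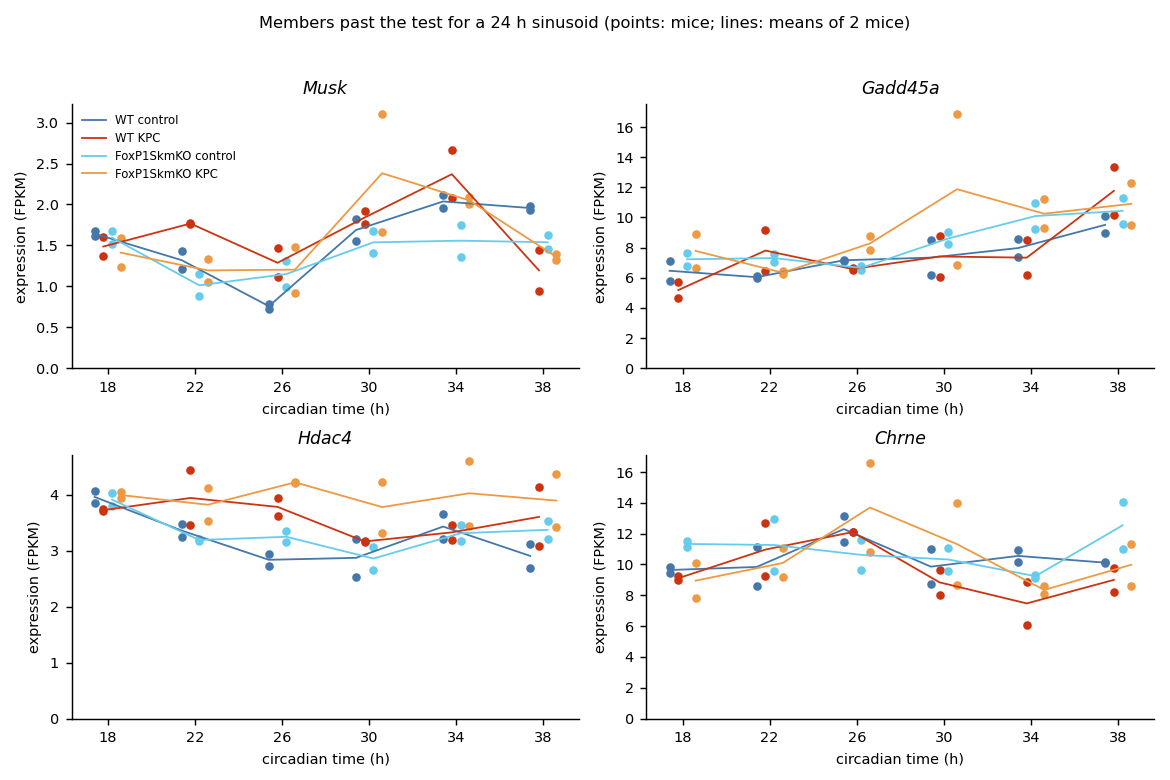
FPKM (linear axes from 0) of the 4 members called for a shared sinusoid against circadian time (CT18 to CT38, in h), colored by genotype and tumor status, with points for mice and lines through the means of 2 mice. *Musk* is lowest in WT control mice at CT26, and *Gadd45a* is higher in every mouse at CT38 than in every mouse at CT18.

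Rhythms were also fitted on FPKM in each set of 12 mice, with a gene taken as rhythmic at an unadjusted p under 0.01, the threshold of the study. In WT control mice (n = 12) *Musk* was the 1 member that passed, where 4.92% of all genes did, with an amplitude of 0.557 ± 0.0896 FPKM (SE) around a mean of 1.57 and a peak at CT36.4 (sinusoid F test, p = 0.000555, adjusted p = 0.0695). In WT KPC mice (n = 12) no member passed, where 4.22% of genes did, and the *Musk* amplitude was 0.277 FPKM (p = 0.362). Of the 10 members only *Chrnb1* and *Chrne* had an unadjusted p under 0.05 there. In FoxP1SkmKO control mice (n = 12) *Gadd45a* passed, where 4.07% of genes did, with an amplitude of 1.92 ± 0.366 FPKM (SE) around a mean of 8.39 and a peak at CT35.4 (p = 0.00184, adjusted p = 0.130). In FoxP1SkmKO KPC mice no member passed, where 2.63% of genes did, and none had an unadjusted p under 0.05.

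Whether the tumor changed a rhythm was tested as the difference between the sinusoids of KPC and control mice. No member was called in either genotype, where 0% of all genes were, and an unadjusted p under 0.05 was found for 0 members in WT and 2 in FoxP1SkmKO mice, beside 5.07% and 5.09% of all genes. *Musk* in WT mice (n = 12 a set), with amplitudes of 0.557 FPKM in control and 0.277 in KPC mice, had p = 0.0719 (adjusted p = 0.752), so a change of its rhythm was not shown. In FoxP1SkmKO mice (n = 12 a set) *Chrnb1* (p = 0.00599) and *Ncam1* (p = 0.0194) were the members with an unadjusted p under 0.05, each with an adjusted p of 0.757. *Chrnb1* had amplitudes of 2.70 and 3.03 FPKM in control and KPC mice and peaks at CT41.8 (the same phase as CT17.8) and CT27.2. Both sets hold high *Chrna1* libraries, and values of this test without them are not given here.

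Other genes of the junction were read from the list of 22 organizers of the postsynaptic site, of which 21 were tested. With a tumor in WT mice 1 rose and 0 fell, where 1.79% of all genes were called. The gene that rose was *Lama5*, a laminin of the synaptic basal lamina, with a log2 difference of 0.15 (SE 0.04, edgeR adjusted p = 0.0376). In FoxP1SkmKO mice 0 were called by edgeR, with 2 at an unadjusted p under 0.05, beside 0.428% and 12.4% of all genes. At CT26 in WT mice, where 7.17% of all genes were called, 4 rose, *Utrn* (utrophin, 0.59), *Lama5* (0.53), *Ckap5* (0.37) and *Dag1* (dystroglycan, 0.24). The shared sinusoid was called for 12 of the 21, beside 34.9% of all genes, among them *Dok7* (peak at CT38.9), *Rapsn* (CT26.2) and *Lamb2* (CT22.4). *Dok7* and *Rapsn*, which act with MuSK in clustering the receptor, had amplitudes of 0.23 and 0.17 on the log2 scale (edgeR adjusted p = 4.25e-05 and 0.00015).

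Of 16 further denervation-responsive genes 15 were tested. With a tumor in WT mice 0 rose and 1 fell, where 1.79% of all genes were called. The gene that fell was *Actc1*, the cardiac actin gene, by 1.22 on the log2 scale (SE 0.25, edgeR adjusted p = 0.00946). At CT26 in WT mice, where 7.17% of all genes were called, 1 rose, *Ampd3*, an AMP deaminase, by 0.74 on the log2 scale (edgeR adjusted p = 0.0438). In FoxP1SkmKO mice 0 were called by edgeR in the average, with 4 at an unadjusted p under 0.05, beside 0.428% and 12.4% of all genes. Between genotypes in control mice *Cdkn1a*, a cell cycle inhibitor, rose by 0.79 and *Dach2* fell by 0.68 on the log2 scale (edgeR adjusted p = 0.0219 and 0.0222). In that comparison 3.44% of all genes were called. FoxP1SkmKO control CT38 replicate 2, a high *Chrna1* library in this comparison, read above the other 44 in *Cdkn1a* and below them in *Dach2*. Values of both genes without the 4 libraries are not given here. The shared sinusoid was called for 9 of the 15, again beside 34.9% of all genes, with *Myod1*, a myogenic factor under clock control, at an amplitude of 0.73 and a peak at CT18.4 (edgeR adjusted p = 7.71e-12). Of 11 other nicotinic receptor and sodium channel genes 5 were tested, and *Scn4a*, the muscle sodium channel, rose by 0.50 on the log2 scale at CT26 in WT mice (edgeR adjusted p = 0.000898).

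Single markers of other cells moved in the same comparisons. With a tumor in WT mice *Ptprc*, of the 8 leukocyte markers, rose by 0.80 on the log2 scale. *Col1a1*, of the 4 fibro-adipogenic markers, fell by 0.91, and *Kdr*, of the 4 endothelial markers, fell by 0.27. In FoxP1SkmKO mice *Lum*, also fibro-adipogenic, fell by 0.79. These passed the adjusted threshold of edgeR, as did 1.79% of all genes in WT and 0.428% in FoxP1SkmKO mice. No other marker of these lists was called in these averages. Of the 8 Schwann cell and myelin markers 0 were called by edgeR, where 1.79% of all genes were in WT and 0.428% in FoxP1SkmKO mice. An unadjusted p under 0.05 was found for 5 in WT and 6 in FoxP1SkmKO mice, beside 15.2% and 12.4% of all genes. The median log2 difference of these markers with a tumor was -0.32 in WT and -0.42 in FoxP1SkmKO mice. The same markers summed to medians of 25.6 FPKM in WT control, 22.0 in WT KPC, 24.04 in FoxP1SkmKO control and 17.3 in FoxP1SkmKO KPC mice. The summed leukocyte markers had medians of 17.7 FPKM in WT control, 22.5 in WT KPC, 19.4 in FoxP1SkmKO control and 19.6 in FoxP1SkmKO KPC mice. The summed fibro-adipogenic markers had medians of 39.2, 23.8, 37.2 and 20.8 FPKM in the same order. The part of these cells in the values of *Hdac4* and *Chrnb1* was not tested.

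Genes whose deviations from the group means were most like those of each member were named by Pearson's r of log2 CPM (counts scaled to library size) over the 48 libraries, as a description. For *Chrna1* these were *Ttc9* (r = 0.952), *Sln* (0.894) and *Ache* (0.854), with r = 0.864, 0.599 and 0.581 over the 40 libraries outside the groups of the 4 high ones. *Ttc9* read 1.55, 3.27, 2.15 and 3.42 FPKM in the 4 libraries and 0.199 to 1.11 in the other 44. *Chrna1* and *Chrnb1* had r = 0.755 over 48 and 0.592 over 40 libraries, while *Chrna1* and *Runx1* had r = 0.714 and -0.21, so the likeness of the latter pair rested on those groups. *Chrne* was most like *B3gat1* (r = 0.831, and 0.746 over 40 libraries), *Msrb1* and ENSMUSG00000120970. *Hdac4* was most like *Sorbs3* (0.796, and 0.792 over 40), *Hectd4* and *H6pd*, and *Gadd45a* most like *Zfyve16* (0.765, and 0.557 over 40), *Myod1* and *Igfn1*. *Chrnb1* was most like *Gm7160* (0.770), *Sdk1* and *Pamr1*, *Chrnd* most like C030037D09Rik (0.726), *Mospd3* and *Prkar1a*, and *Musk* most like *Luc7l* (0.725), *Nhlrc2* and *Spo11*. *Ncam1* was most like *Gm16793* (0.807), *Col20a1* and *Usp20*, and *Runx1* most like ENSMUSG00000120423 (0.829), *Ak7* and *Usp20*. For *Chrng*, whose few counts leave little to compare, the 3 genes were *Cx3cr1*, *Vcpkmt* and *Copg2*. The libraries share their depth range, and with 2 mice a group the deviations of a pair mirror each other, so the 48 points hold 24 independent ones.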

How the data were processed

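Tibialis anterior RNA from 48 mice was sequenced as poly(A) libraries, aligned to mm39. The submitters' processing notes name HISAT2 2.0.5 and DESeq2 1.20.0, whereas the study's methods name STAR and HTSeq for alignment and counting. The deposited tables held counts per gene, which the authors left unnormalized, and FPKM, which the authors scaled by gene length and library size. Columns of the authors' own fold changes and p-values were not used, and 0 columns belonged to no sample. The members and gene lists were chosen with earlier results of these data known.

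Counts were tested with edgeR 4.0.16 (R 4.3.3; TMM, filterByExpr, quasi-likelihood test, Benjamini-Hochberg adjustment over 15637 genes) in 1 model of the 24 groups, averaged over 6 times with equal weight. The prior had 8.611 degrees of freedom. The study's own tests ran at each time with DESeq2, kept here as an alternative (version 1.42.0). A 24 h sinusoid was fitted to all 48 libraries in edgeR, with a mean for each of the 4 sets of genotype and tumor status, and to FPKM in each set of 12 mice with an F test (scipy 1.17.1). Markers, junction and denervation lists were fixed by symbol. The 10 members are all named, and of the lists those called with a tumor or in the sinusoid, at most 4 per list and comparison. The result of 1 list gene is not reported here. The markers, *Cdkn1a* and *Dach2* (genotype), the list genes at CT26, *Myog*, and *Ache* and *Sln* in single libraries were singled out after their values were seen. Replicates of each group differed by more than sampling noise (chi-square per degree of freedom 5.15 to 17.4). Mice were separate animals. With totals of 14480867 to 20787784 counts the sampling error weighs most on *Chrng*, *Runx1*, *Chrnd* and *Ncam1*, the members with the fewest counts. Alternatives were DESeq2, limma 3.58.1 on log2(FPKM + 0.1) and log2(FPKM + 1), no filter, a replicate block, and leaving out each library, each time, or the 4 libraries with the highest *Chrna1*. The leave-one-out fits reused the trended dispersion of the full fit. Each script was tested on simulated data.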

Additional observations from a re-analysis of the deposited data

How the results depend on the processing

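The member calls averaged over the day lay near the threshold. With a tumor in FoxP1SkmKO mice the count of members called was 0 instead of 1 on averages lacking CT18, CT26, CT30 or CT38, by limma on log2(FPKM + 0.1) or log2(FPKM + 1), and without the 4 libraries with the highest *Chrna1*. Between genotypes in KPC mice it was 0 instead of 1 on averages lacking CT26, CT30, CT34 or CT38, by limma with either pseudocount, and without those 4 libraries. Without the filter on low counts each gene takes the trend's spread. The count was then 1 with a tumor in WT mice, 1 between genotypes in control mice and 3 between genotypes in KPC mice. Of all 33218 genes, 794, 933 and 470 were called in these comparisons. Over the single times the count was 9, where 87 to 1130 genes were called at a time. The cause of the other changes was not tested. At single times DESeq2 on all 48 libraries called 1, DESeq2 on 4 libraries called 2 (*Hdac4* in WT mice at CT26, adjusted p = 0.0428, and *Chrna1* in FoxP1SkmKO mice at CT18, adjusted p = 0.000954), and edgeR without the 4 libraries called 1. In WT mice at CT26 DESeq2 called 1255 of 9574 genes on all 48 libraries and 587 of 6424 on 4. In FoxP1SkmKO mice at CT18 it called 97 of 11150 genes on 4 libraries. The FPKM sinusoids with Benjamini-Hochberg adjustment called 0 instead of 2.

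Leaving out each library in turn, the count of members called ranged from 0 to 0 with a tumor in WT mice, 0 to 1 in FoxP1SkmKO mice, 0 to 0 for the difference between genotypes, 0 to 1 between genotypes in control mice, 0 to 2 between genotypes in KPC mice, 2 to 5 for the shared sinusoid, 0 to 5 at single times, 2 to 3 for the FPKM sinusoids and 0 to 0 for their difference. *Hdac4* in FoxP1SkmKO mice lost its call without control replicate 2 at CT18, CT22, CT26, CT34 or CT38 or replicate 1 at CT30, and without KPC replicate 2 at CT18, CT22, CT26, CT30 or CT34 or replicate 1 at CT38. *Chrnb1* lost its call in KPC mice without any of 24 libraries, some of them control libraries that enter that comparison only through the shared spread. *Chrna1* between genotypes in control mice was called without FoxP1SkmKO control CT38 replicate 1 (log2 difference 0.71). *Gadd45a* between genotypes in KPC mice was called without FoxP1SkmKO KPC CT30 replicate 1 (log2 difference 0.36). In each case the mouse left alone in its group was a high *Chrna1* library. Leaving out FoxP1SkmKO KPC CT30 replicate 1 also gave calls of *Chrna1*, *Musk* and *Runx1* at CT30, where the lone mouse left is assumed to vary like the other groups.

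*Runx1* changed sign. Its log2 difference between genotypes in KPC mice was -0.0733, -0.102 and -0.0243 without CT26, CT30 and CT38, -0.00795 by limma on log2(FPKM + 0.1), and -0.41 without the 4 libraries, and it ran from -0.27 to 0.17 over single libraries left out. Its tumor effect in FoxP1SkmKO mice at CT30 was -0.56 without the 4 libraries, and -0.55 to 2.12 over single libraries left out. Every value of the *Runx1* difference between genotypes in KPC mice missed the threshold. Its tumor effect at CT30 missed it too, except without the filter or without FoxP1SkmKO KPC CT30 replicate 1, which leaves a lone mouse. Replicate numbers did not pair the mice (r of deviations -0.12 to 0.0465 over 12 comparisons). With a replicate block the counts of members called were 0, 1, 0, 0 and 1 in the averaged comparisons and 4 for the shared sinusoid, with *Hdac4* at adjusted p = 0.0352 and *Chrnb1* at 0.0461 (edgeR), and no member call changed. Depth limits *Chrng*, with 0 reads in 10 of 48 libraries.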
